A study of Rattus norvegicus with 9 samples.

Results

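The regulators of G-protein signalling described here are 8 genes of the RGS family, Rgs2, Rgs3, Rgs4, Rgs7, Rgs8, Rgs10, Rgs16 and Rgs17, measured in cultured rat retinal ganglion cells. Each was matched by its symbol to 1 transcript cluster of the array, so the 8 members are 8 of 36685 clusters and 8 of 18166 named genes. The family was chosen by the measured values of Rgs4, which was lower with myr-SetB than with mCherry. That difference is therefore a description with no test, and values of Rgs4 in the other comparisons are given in the same way. Another 12 RGS genes on the array serve as the comparison.

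The study asked how Set-β, the protein encoded by Set that binds histones and inhibits protein phosphatase 2A, alters gene expression in these neurons. The neurons were immunopanned from P4 (postnatal day 4) pups of the Sprague Dawley strain and electroporated with 1 of 3 constructs, the fluorescent protein mCherry as control, wild-type Set-β (wt-SetB), or Set-β with a myristoylation signal that directs it to membranes (myr-SetB). The cells of all 3 groups also received pMAX-GFP, were sorted for GFP the next day, and were lysed 3 days after transfection. Each group had 3 arrays, called biological replicates in the labels. The promoter that drove the constructs is not stated in the labels, and untransfected cells were not analysed here. The labels do not say that replicates came from separate litters or cultures. The p-values therefore reflect only how far these arrays scatter, and some of that scatter may be technical.

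RGS proteins bind the active, GTP-bound α subunit of a heterotrimeric G protein and speed its hydrolysis of GTP, which shortens the signal from a receptor. The R4 subfamily holds small proteins, among them Rgs4, that act on Gi/o and Gq. The R7 subfamily works as an obligate pair with the β subunit Gnb5, and the RZ subfamily is known for acting on Gz. In neurons these proteins set how quickly receptors for adenosine, GABA or glutamate turn channels and adenylyl cyclase on and off. Rgs4, Rgs5 and Rgs16 proteins also begin with a cysteine after the first methionine, which makes them short-lived substrates of the arginine branch of the N-degron pathway.

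The genes lie partly in clusters. In the GRCr8 annotation 5 of the 8 members are on chromosome 13, where Rgs4 neighbours Rgs5, Rgs8 neighbours Rgs16, and Rgs2 neighbours Rgs13. The 250 bases before the annotated start follow for 3 members, because these had the lowest difference of myr-SetB from mCherry (Rgs4), the lowest of wt-SetB from mCherry (Rgs7) and the highest of myr-SetB from mCherry (Rgs16). The sequences are RefSeq's for GRCr8, written 5′ to 3′ on the gene's own strand. Capitals mark every match, on either strand, to TATAAA, the core of the TATA box, to GGGCGG, the GC box, to TGACG, found in the response element for cyclic AMP, or to CACCC, a core bound by Krüppel-like factors. No match to the homeodomain core TAATTA was present in any of the 8 members.
Rgs4, chr13:84475885-84476134, minus strand: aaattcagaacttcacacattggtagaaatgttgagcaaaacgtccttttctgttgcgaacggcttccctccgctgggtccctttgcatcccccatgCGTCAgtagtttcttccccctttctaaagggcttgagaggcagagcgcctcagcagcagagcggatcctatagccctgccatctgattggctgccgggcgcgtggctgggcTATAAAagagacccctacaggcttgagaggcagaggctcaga
Rgs7, chr13:89941051-89941300, minus strand: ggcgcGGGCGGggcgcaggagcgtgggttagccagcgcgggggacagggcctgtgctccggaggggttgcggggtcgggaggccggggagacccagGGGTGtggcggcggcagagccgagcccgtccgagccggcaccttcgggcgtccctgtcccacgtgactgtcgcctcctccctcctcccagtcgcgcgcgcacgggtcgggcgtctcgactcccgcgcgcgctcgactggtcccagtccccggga
Rgs16, chr13:68437870-68438119, plus strand: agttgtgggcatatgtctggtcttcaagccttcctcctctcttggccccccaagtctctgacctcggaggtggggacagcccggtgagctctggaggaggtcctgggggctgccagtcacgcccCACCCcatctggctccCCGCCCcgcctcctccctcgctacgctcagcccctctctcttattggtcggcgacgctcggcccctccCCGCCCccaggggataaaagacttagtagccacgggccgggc

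The Rgs4 window held 1 TATAAA, beginning 42 bases before the start, and 1 TGACG match, beginning 153 bases before it, and had no GC box. Its GC content was 54.4%, against 77.2% for Rgs7 and 66.8% for Rgs16 and a median of 51.2% over 33469 rat promoters. The Rgs7 window held 1 GC box and 1 CACCC box, and the Rgs16 window 2 GC boxes and 1 CACCC box. Among the 8 members TATAAA was found in Rgs3 and Rgs4. Of all 33469 promoters, 12.9% held TATAAA, 30.5% GGGCGG, 18.2% TGACG, 49.2% CACCC and 4.86% TAATTA. A match describes these letters in this window and was not tied to binding of any factor.

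The deposited values are fluorescence intensities scaled so that each array's median is the same, and all levels below are their log2. As a mark of background, the 90th percentile of 1360 clusters of olfactory and vomeronasal receptor genes on each array was used, a class of genes that retinal neurons are not known for. The labelled cell type was present, since 9 of 15 ganglion cell markers exceeded that mark on all 9 arrays. Of 10 photoreceptor and bipolar markers 0 did so, and Prkca, above the mark on 6 arrays, was the only one of them above it on any array. Replicate 1 of each group stood apart in some markers of other cells. The glial list's summed level was 9.43 to 9.88 there and 11.46 to 12.27 in the other 6 arrays. Vim, which many cell types express, carried that gap at 7.84 to 8.60 against 11.15 to 12.13, while Gfap, Slc1a3, Aqp4 and Sox9 were not above the background mark on any array. The summed level of the vascular and fibroblast list split in the same way, at 9.58 to 9.95 in replicate 1 against 10.39 to 11.15. Within it Pdgfrb, a receptor of mural cells, read 7.06 to 7.33 against 8.37 to 9.45, and Col3a1, a collagen of fibroblasts, 6.16 to 6.55 against 7.66 to 8.56. Cspg4 and Col1a2 were also lower in replicate 1. Col1a1, another collagen, did not split, at 7.25 to 7.54 in replicate 1 against 7.34 to 7.62. Nor did Cdh5, Cldn5 and Tek, which were not above the background mark on any array. The spread of signal, taken as each array's 90th minus its 10th percentile, was 4.29 to 4.54 log2 units with mCherry, 4.12 to 4.21 with wt-SetB and 3.82 to 4.46 with myr-SetB. The median difference from mCherry over the 18343 clusters tested was -0.18 for wt-SetB and -0.16 for myr-SetB, and differences relative to these medians are given where they matter. The medians were lower among brighter clusters, at -0.36 for both constructs over the 9172 clusters past a filter at the 75th percentile of mean level. Over the 10714 tested clusters with 1 symbol they were -0.29 and -0.26.

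Rgs4, the R4 member abundant in forebrain neurons, was lowest in the myr-SetB arrays and intermediate in the wt-SetB arrays. Its log2 level was 9.71, 9.17 and 9.63 in mCherry replicates 1, 2 and 3. It was 9.09, 8.99 and 8.96 with wt-SetB, and 8.30, 8.60 and 8.54 with myr-SetB. All 3 myr-SetB arrays lay below all 3 wt-SetB arrays, which in turn lay below all 3 mCherry arrays. The group means were 9.50 ± 0.29 (SD, n = 3) with mCherry, 9.01 ± 0.07 (SD, n = 3) with wt-SetB and 8.48 ± 0.16 (SD, n = 3) with myr-SetB. The myr-SetB mean was thus 1.02 log2 units lower than the control's (difference -1.02, SE 0.19), or 0.493 times its intensity. The wt-SetB mean differed from the control's by -0.49 (SE 0.19), a ratio of 0.711, and the myr-SetB mean from the wt-SetB mean by -0.53 (SE 0.19), a ratio of 0.693. Rgs4 was above the background mark on all 9 arrays. A descending order of the 3 groups without overlap was found in 26 of 18343 clusters, or 0.142%, and since Rgs4 was chosen for its difference nothing is read from its place among them. A difference lower than that of Rgs4 was found for 328 of the 18343 clusters in myr-SetB against mCherry, 427 in myr-SetB against wt-SetB and 4385 in wt-SetB against mCherry.

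**Figure D1:**
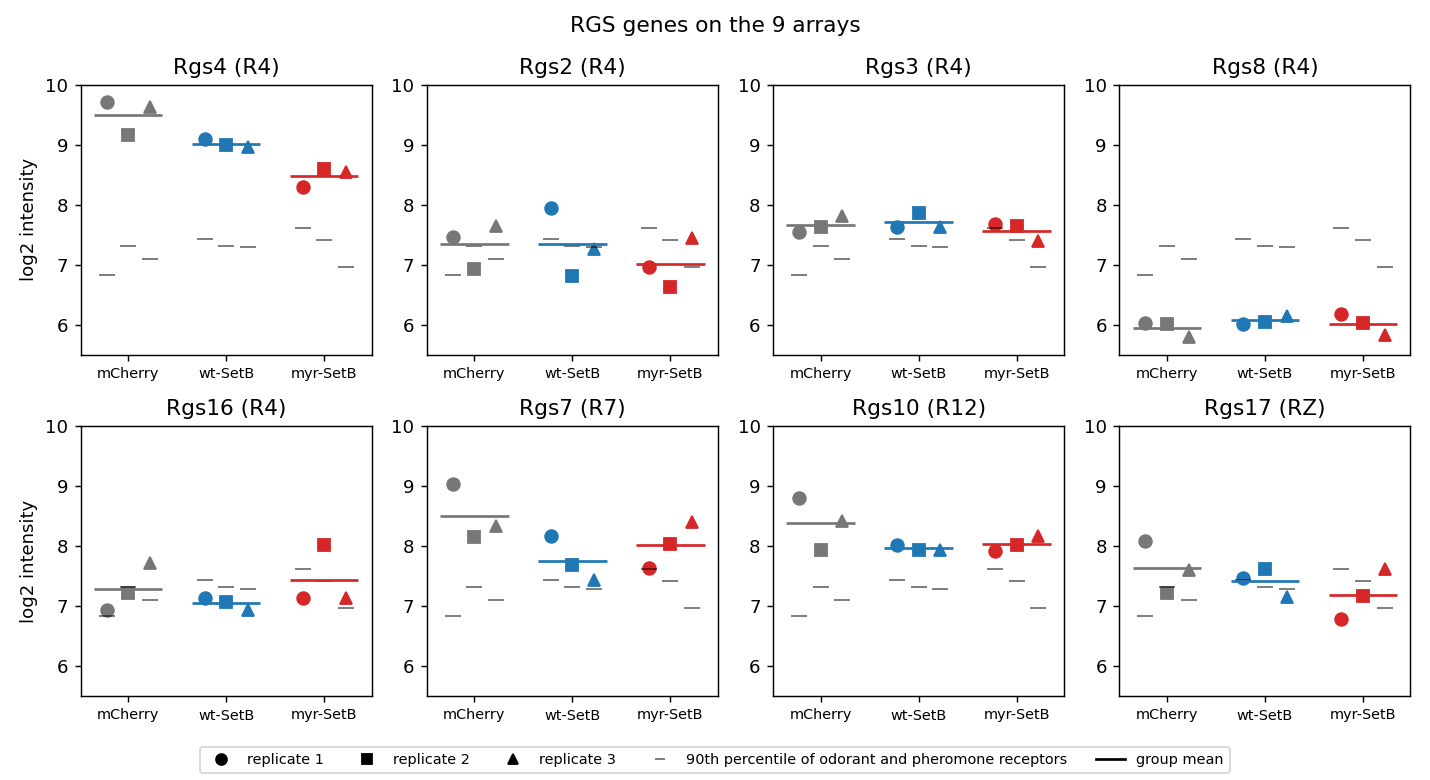
Log2 intensity of each of the 8 RGS genes on every array, 1 panel per gene, with points for the 3 replicates of mCherry, wt-SetB and myr-SetB a line at each group mean and short dashes at the 90th percentile of the receptor genes on that array. Rgs4 descends from a mean of 9.50 to 9.01 and 8.48 without overlap, while in the other 7 panels the groups overlap; levels are not comparable between genes.

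The Rgs4 difference of myr-SetB from either other group kept its direction and its separation when the arrays were given a common distribution, and the difference of wt-SetB from mCherry did not keep its separation. After quantile normalization, which moves the all-cluster median differences to -0.03 for both constructs, Rgs4 was 9.28 ± 0.15 (SD, n = 3) with mCherry, 9.14 ± 0.05 (SD, n = 3) with wt-SetB and 8.58 ± 0.21 (SD, n = 3) with myr-SetB. The myr-SetB difference was then -0.70 from mCherry and -0.56 from wt-SetB, with no overlap in either. The wt-SetB difference from mCherry was -0.14 and the arrays overlapped. Cyclic loess normalization gave -0.59, -0.47 and -0.13 in the same order, again with overlap in wt-SetB against mCherry. On the deposited scale, in the same order and relative to the median of all tested clusters, the values were -0.86, -0.54 and -0.31. The 9172 brightest clusters, which include Rgs4, had a lower median difference from mCherry, -0.36 for both constructs. Without the 3 arrays numbered 1, which had low levels of Vim, Pdgfrb and Col3a1, the deposited Rgs4 differences were -0.83, -0.40 and -0.43 in the same order.

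**Figure D2:**
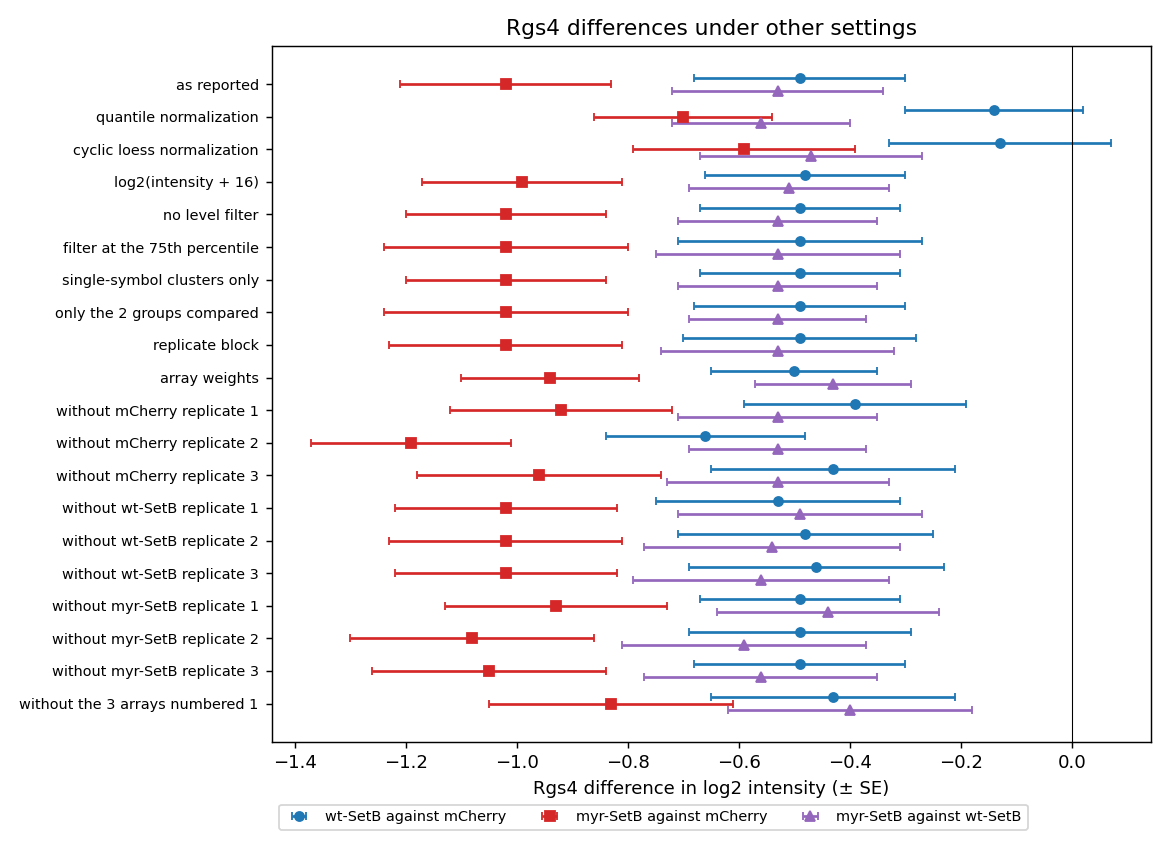
Difference in mean log2 intensity of Rgs4 (x axis, bars 1 SE from the fit) in the 3 comparisons, as reported in the first row and under each of 19 other settings in the rows under it. All points lie below 0, and the wt-SetB difference is nearest to 0 after quantile (-0.14) and cyclic loess normalization (-0.13).

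Ganglion cell markers were also lower in both Set-β groups, and in bulk RNA fewer cells of a type and less RNA per cell cannot be told apart. All 15 markers had lower means than mCherry with both constructs, where 65.5% and 63.9% of all tested clusters did, with median differences of -0.54 for wt-SetB and -0.60 for myr-SetB. For the 9172 brightest clusters the median was -0.36 with both constructs. Of 12 amacrine and horizontal cell markers 10 and 8 had lower means. Their median differences were -0.13 and -0.10, where those of all tested clusters were -0.18 and -0.16. Pax6, also a gene of ganglion cells, was at -0.69 and -0.85 (SE 0.40 each) and Slc6a9 at -0.41 and -0.45 (SE 0.22 each). Tfap2b, above the background mark on 6 arrays, was at -0.09 and 0.16 (SE 0.38 each), so it was higher with myr-SetB only. Gad1 at 0.15 and 0.33 and Onecut1 at 0.13 and 0.16 were higher, but neither was above the background mark on any array. The summed level of the ganglion cell list was 13.47 to 14.21 with mCherry, 12.81 to 13.60 with wt-SetB and 12.88 to 13.69 with myr-SetB, so the ranges overlapped. After quantile normalization the mean of the 15 differed from mCherry by -0.21 and -0.36. Set against the mean log2 level of the 15 markers on the same array, Rgs4 was 0.09, 0.22 and 0.40 in the mCherry replicates, 0.09, 0.16 and 0.45 with wt-SetB, and 0.07, -0.13 and -0.51 with myr-SetB. The wt-SetB and mCherry arrays were interleaved on that measure. The myr-SetB arrays were the 3 lowest, with replicate 1 closest to the others, and the mean difference was -0.43 from mCherry and -0.42 from wt-SetB. After quantile normalization myr-SetB replicate 1 stood at 0.21 and overlapped both other groups, and the mean differences were -0.34 and -0.41. The part of the marker differences in the Rgs4 values was not tested.

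**Figure D3:**
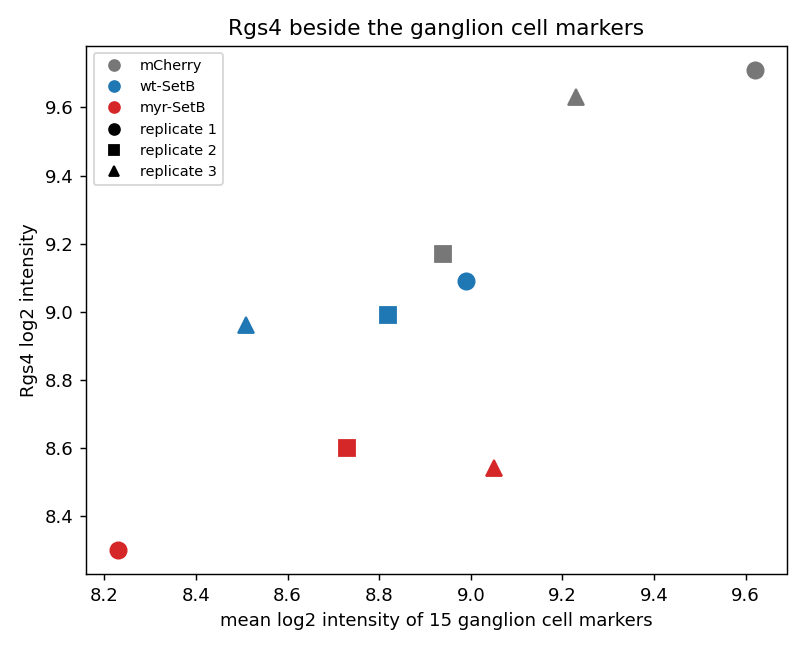
Log2 level of Rgs4 against the mean log2 level of 15 ganglion cell markers on each of the 9 arrays, coloured by construct and shaped by replicate number. The myr-SetB arrays have the 3 lowest Rgs4 values, and myr-SetB replicate 3 has a marker mean of 9.05, inside the mCherry range.

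Of the other R4 members, Rgs2, which prefers Gq and is known as a gene induced by activity, spread widely within groups. It read 7.46, 6.93 and 7.64 with mCherry, 7.95, 6.82 and 7.27 with wt-SetB, and 6.96, 6.63 and 7.45 with myr-SetB. Replicate 2 was the lowest array of each group, and the groups overlapped. The wt-SetB difference from mCherry was 0.00 (SE 0.34), and those of myr-SetB were -0.33 (SE 0.34) from mCherry and the same from wt-SetB. Rgs2 exceeded the background mark on 4 of 9 arrays, so part of its range is near background. Without the arrays numbered 1 both constructs differed from mCherry by -0.24.

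Rgs3, a larger R4 protein that also acts on Gi and Gq, was the steadiest of the detected members. Its levels were 7.54, 7.63 and 7.81 with mCherry, 7.63, 7.86 and 7.63 with wt-SetB, and 7.68, 7.65 and 7.39 with myr-SetB. The groups overlapped, and the 9 arrays spanned less than those of any other member above the background mark on all arrays. The difference from mCherry was 0.05 (SE 0.16) for wt-SetB and -0.09 (SE 0.16) for myr-SetB. After quantile and loess normalization the wt-SetB difference was 0.22 and 0.24, with all 3 wt-SetB arrays above the mCherry arrays, and the myr-SetB difference changed sign to 0.10 and 0.09, with overlap.

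Rgs16, an R4 protein whose transcript cycles with the clock in the hypothalamus, had the highest myr-SetB difference of the 8. Its levels were 6.94, 7.21 and 7.71 with mCherry, 7.14, 7.06 and 6.93 with wt-SetB, and 7.14, 8.01 and 7.14 with myr-SetB. Only myr-SetB replicate 2 was above the mCherry range, and the other myr-SetB arrays both read 7.14. The difference from mCherry was -0.24 (SE 0.28) for wt-SetB and 0.14 (SE 0.28) for myr-SetB, and with any 1 array left out the latter ran from -0.15 to 0.35. Without the arrays numbered 1 the differences were -0.47 and 0.11. Rgs8, an R4 gene best known from cerebellar Purkinje cells, lay between 5.80 and 6.18 on all arrays, was never above the background mark and was below the level filter, so it was not tested and its differences of 0.13 and 0.07 say nothing about a change.

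Rgs7, the R7 member that pairs with Gnb5 and acts on Go, had the lowest wt-SetB difference of the 8. It read 9.03, 8.15 and 8.34 with mCherry, 8.16, 7.68 and 7.43 with wt-SetB, and 7.63, 8.04 and 8.40 with myr-SetB. Only wt-SetB replicate 1 reached into the mCherry range, by 0.01 above mCherry replicate 2, and the myr-SetB arrays spread across both other groups. The difference of wt-SetB from mCherry was -0.75 (SE 0.31), with an unadjusted p of 0.0372 and an adjusted p of 0.447 in limma. It was -0.48 after quantile and after loess normalization and -0.49 without mCherry replicate 1. The myr-SetB difference was -0.48 (SE 0.31) from mCherry and 0.27 (SE 0.31) from wt-SetB, so its order of groups was not that of Rgs4. The former was -0.23 and -0.20 after quantile and loess normalization. Without the 3 arrays numbered 1 the myr-SetB difference from mCherry was -0.02 and that from wt-SetB 0.66.

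Rgs10, a short R12 protein that acts on Gi and is found in microglia as well as neurons, read 8.80, 7.94 and 8.41 with mCherry, 8.02, 7.93 and 7.94 with wt-SetB, and 7.91, 8.02 and 8.17 with myr-SetB. The mCherry arrays spanned the wider range and overlapped both other groups. The differences from mCherry were -0.42 (SE 0.22) for wt-SetB, with an adjusted p of 0.447 in limma, and -0.35 (SE 0.22) for myr-SetB. Without the arrays numbered 1 they were -0.24 and -0.08. After quantile normalization they were -0.13 and -0.07, and after loess -0.15 and -0.06. With any 1 array left out they ran from -0.64 to -0.21 and from -0.57 to -0.14. The part of the scaling in these differences was not tested. The summed level of 13 microglial and macrophage markers was 10.58 to 11.11 with mCherry, 10.57 to 11.29 with wt-SetB and 10.62 to 11.17 with myr-SetB. Of those markers Tyrobp was above the background mark on all 9 arrays, Cd68 on 8, C1qa on 7, Aif1 and Lyz2 on 6, Cx3cr1 on 3, and P2ry12 and Tmem119 on 0. Over the 13 markers the median differences from mCherry were 0.07 and 0.05, with 4 and 2 below 0. Cx3cr1 differed by 0.73 and 0.68 (SE 0.19 each) and C1qa by 0.62 and 0.66 (SE 0.24 each), with an adjusted p of 0.447 in limma in each case. Cx3cr1 had no overlap in either, where 7.31% and 4.55% of all tested clusters lay wholly above mCherry. Lyz2 went the other way, at -0.52 and -1.48 (SE 0.84 each). The part of these cells in the Rgs10 level was not tested.

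Rgs17, the RZ member that acts on Gz and Gi/o, read 8.09, 7.22 and 7.60 with mCherry, 7.47, 7.61 and 7.15 with wt-SetB, and 6.78, 7.17 and 7.61 with myr-SetB. Replicate 1 was both the highest mCherry array and the lowest myr-SetB array. The differences from mCherry were -0.23 (SE 0.29) and -0.45 (SE 0.29), and they were -0.03 and -0.02 without the 3 arrays numbered 1 and -0.05 and -0.34 after quantile normalization. Rgs17 was above the background mark on 5 of 9 arrays. Its level followed the spread of signal on the array, with a Pearson correlation of 0.84 over the 9 arrays, as did Rgs7 at 0.77, Rgs10 at 0.76 and Rgs4 at 0.70. Rgs2 stood at 0.37, Rgs16 at 0.10, Rgs3 at -0.23 and Rgs8 at -0.80. These correlations describe 9 arrays that share the groups and the scaling, and the part of the spread of signal in the members' values was not tested.

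In limma's moderated test with Benjamini-Hochberg adjustment, none of the 6 members tested, which are those above the level filter other than Rgs4, passed an adjusted p of 0.05 in wt-SetB against mCherry or in myr-SetB against wt-SetB. For wt-SetB against mCherry the adjusted p was 0.447 for Rgs7 and Rgs10, 0.629 for Rgs16, 0.649 for Rgs17, 0.877 for Rgs3 and 0.997 for Rgs2, and for myr-SetB against wt-SetB it was 1 for each of them. Over all 18343 clusters 0 (0%) passed in any of the 3 comparisons, while 1865, 1796 and 208 had an unadjusted p under 0.05 in wt-SetB against mCherry, myr-SetB against mCherry and myr-SetB against wt-SetB. These comparisons are not independent, since both constructs share the mCherry arrays and the last shares the myr-SetB arrays with the contrast that chose the family.

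In wt-SetB against mCherry 5 of the 8 members had a mean below the control's, where 65.5% of all tested clusters did, and the members' median difference was -0.23 against -0.18 for all tested clusters. Over the 10714 tested clusters with 1 symbol, as the members have, the median was -0.29, lower than that of the members. In myr-SetB against mCherry 6 of 8 were below, where 63.9% of all clusters were, with a median of -0.34 against -0.16, and nothing is read from this count because the contrast chose the family. The median of the single-symbol clusters in that comparison was -0.26. In myr-SetB against wt-SetB 5 of 8 were below, where 48.5% of all clusters were, with a median of -0.09 against 0.01. After quantile or loess normalization 5 of 8 were below 0 in each comparison. In the same order, 53.5%, 53% and 51.9% of all tested clusters were below after quantile, and 53.1%, 51.4% and 47.4% after loess. All arrays of the test group lay below all arrays of the reference for 1 member, Rgs4, in each comparison. Among all tested clusters the same held for 26.4% in wt-SetB against mCherry, 6.85% in myr-SetB against mCherry and 1.76% in myr-SetB against wt-SetB. No member lay wholly above, where 7.31%, 4.55% and 2.63% of all clusters did in the same order.

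**Figure D4:**
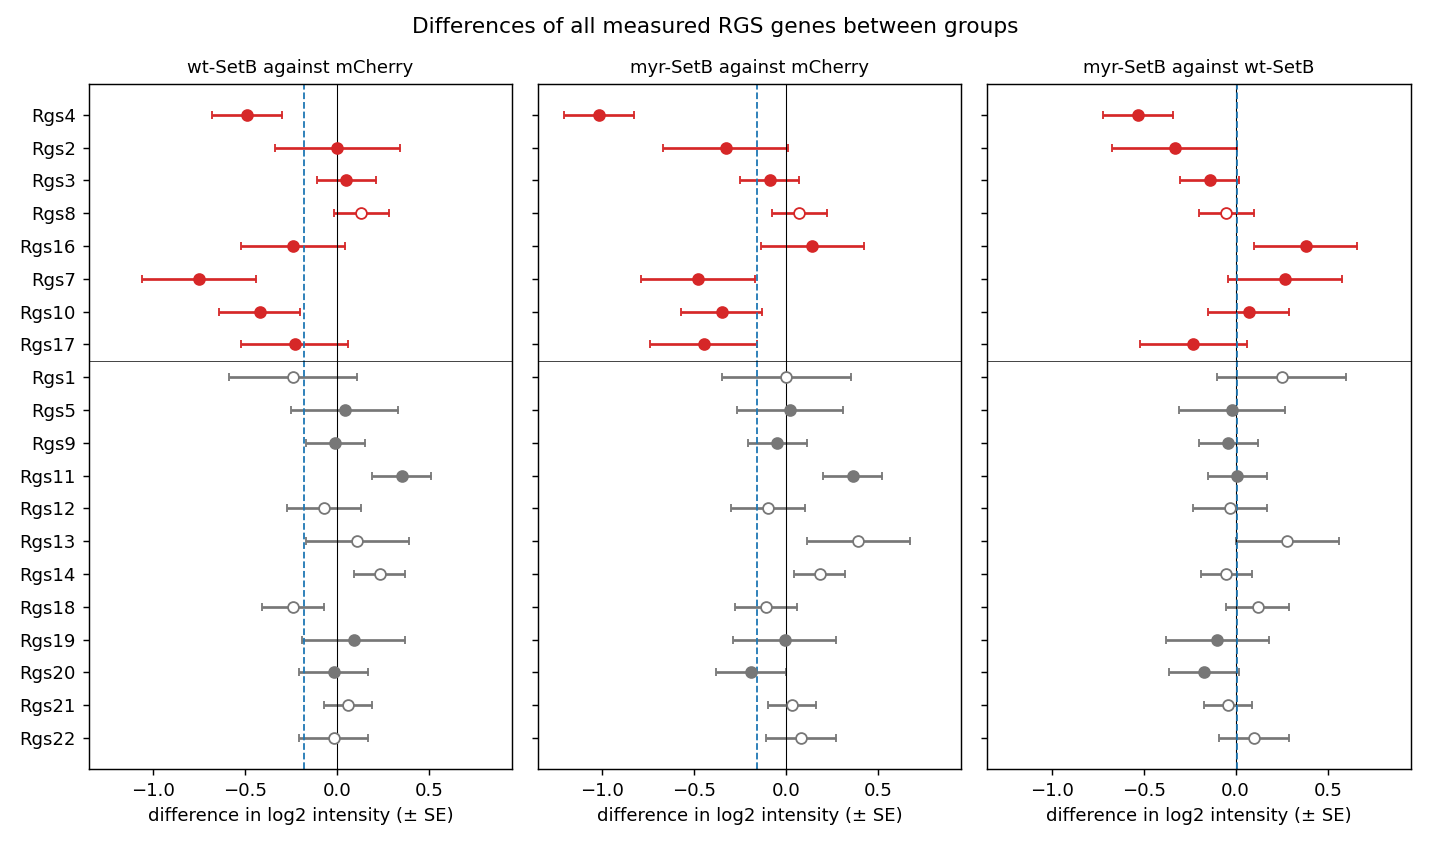
Difference in mean log2 intensity (x axis, bars 1 SE from the fit over 3 arrays per group) in the 3 comparisons, for the 8 RGS genes in red and the other 12 measured in grey, with open points for genes not tested and a dashed line at the median of all tested clusters. Rgs4 has the lowest myr-SetB value against mCherry (-1.02) and Rgs7 the lowest wt-SetB value (-0.75), and the other 12 lie between -0.24 and 0.39 in all panels.

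Of 13 further RGS genes, 12 were measured with a single symbol and 5 passed the level filter, and none of these 5 passed the adjusted p. Their differences from mCherry ran from -0.24 to 0.35 for wt-SetB and from -0.19 to 0.39 for myr-SetB over all 12, with a median of 0.01 in both, and all but Rgs9 and Rgs19 were above the background mark on at most 2 arrays. Rgs11, the R7 member known from the dendrites of retinal ON bipolar cells, read 6.76, 6.75 and 6.70 with mCherry, 6.97, 6.93 and 7.35 with wt-SetB, and 7.14, 7.05 and 7.09 with myr-SetB. All 6 Set-β arrays lay above the 3 mCherry arrays. Among all tested clusters 7.31% lay wholly above mCherry with wt-SetB and 4.55% with myr-SetB. The Rgs11 differences were 0.35 and 0.36 (SE 0.16 each), with an adjusted p of 0.447 in limma in both. Rgs11 was above the background mark on 2 of 9 arrays, and the separation was noticed after its values were seen. Rgs9, the R7 member of photoreceptors and striatum, was above background on all arrays and differed by -0.01 and -0.05 (SE 0.16 each). Rgs5, the neighbour of Rgs4 and a gene of pericytes, differed by 0.04 and 0.02 (SE 0.29 each), and replicate 1 was its lowest array in each group.

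The genes whose levels ran most like that of Rgs4 over the 9 arrays, among 10701 compared, were Car11, a carbonic anhydrase-related protein, with a Pearson correlation of 0.98, Aldh18a1, an enzyme of proline synthesis, at 0.97, Cx3cl1, the chemokine fractalkine, at 0.95, Fut9, a fucosyltransferase, at 0.95, and Iftap at 0.94. The arrays share their groups and scaling, so these values are descriptions. After quantile normalization they were 0.92, 0.81, 0.80, 0.79 and 0.78, and Car11 again ranked 1 while the others ranked 24, 28, 32 and 37. Car11 read 8.11, 7.84 and 8.03 with mCherry, 7.77, 7.85 and 7.77 with wt-SetB, and 7.42, 7.57 and 7.57 with myr-SetB. Its myr-SetB arrays were the 3 lowest, and its wt-SetB and mCherry arrays overlapped. The genes named were picked as the highest, and RGS genes were left out of that ranking. Nothing is therefore read from the RGS members having lower correlations. Rgs17 correlated with Rgs4 at 0.72, Rgs10 at 0.70, Rgs7 at 0.59, Rgs2 at 0.47, Rgs3 at 0.23, Rgs16 at -0.07 and Rgs8 at -0.38. After quantile normalization the highest of these was 0.44, for Rgs17.

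The proteins that hold R7 members in place were measured by 5 genes, of which 3 were tested and 0 passed the adjusted p. Gnb5, the obligate partner of Rgs7, differed from mCherry by -0.46 with wt-SetB and -0.40 with myr-SetB (SE 0.20 each) but was below the level filter. Rgs7bp, which anchors R7 complexes at the membrane, differed by -0.26 and -0.10 (SE 0.49 each), and Gpr158, an orphan receptor that recruits Rgs7, by -0.21 and -0.41 (SE 0.31 each). Replicates of both genes differed widely, with control SDs of 0.84 and 0.56. After quantile and loess normalization Gpr158 was at 0.08 with wt-SetB in both, and at -0.18 and -0.11 with myr-SetB, and Rgs7bp with myr-SetB at 0.01 and 0.07. Over the 5 genes 3 were below 0 with each construct, and 2 after quantile or loess normalization. Of all tested clusters 65.5% and 63.9% were below as deposited, and 53.5% and 53% after quantile.

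In the N-degron pathway, which removes Rgs4 and Rgs16 proteins, 6 of 7 genes were measured, 5 were tested and 0 passed the adjusted p. With wt-SetB all 6 had means below mCherry and with myr-SetB 5 of 6, with median differences of -0.33 and -0.45, where 65.5% and 63.9% of all tested clusters were below mCherry, with medians of -0.18 and -0.16. For the 9172 brightest clusters the median was -0.36 with both constructs. The counts were the same after quantile and loess normalization, with smaller medians (-0.11 and -0.27 after quantile). After quantile normalization 53.5% and 53% of all tested clusters were below mCherry, with medians of -0.03. Ate1, the arginyl transferase, differed by -0.80 and -0.58 (SE 0.53 each). Metap1, a methionine aminopeptidase, differed by -0.64 and -0.56 (SE 0.34 each). Ubr1, a ubiquitin ligase that recognises the arginine, differed by -0.34 and -0.51 (SE 0.26 each). Ado, the oxygen-sensing dioxygenase that oxidises the cysteine, was below the level filter and differed by -0.15 and 0.05.

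Among the G-protein α subunits, the substrates of RGS proteins, 14 of 16 were measured, 10 were tested and 0 passed. Their means were below mCherry for 12 with wt-SetB and 10 with myr-SetB, against the same 65.5% and 63.9% of all tested clusters. After quantile normalization 11 and 11 were below, against 53.5% and 53% of all tested clusters. Their medians were -0.29 and -0.34, or -0.12 and -0.24 after quantile normalization. As deposited, the median of the 9172 brightest clusters was -0.36 with both constructs. Gnao1, the Go subunit that is the main neuronal partner of Rgs7, read 11.50, 10.60 and 10.88 with mCherry, 10.75, 10.47 and 9.94 with wt-SetB, and 9.80, 10.26 and 10.65 with myr-SetB. The groups overlapped, and the differences were -0.60 and -0.75 (SE 0.32 each), with an adjusted p of 0.447 in both. Gnaq, which activates phospholipase C, read 9.01, 8.49 and 9.03 with mCherry, 7.99, 7.96 and 7.99 with wt-SetB, and 7.31, 8.26 and 8.81 with myr-SetB. Its wt-SetB arrays lay below all mCherry arrays while its myr-SetB arrays overlapped them, in comparisons where 26.4% and 6.85% of all clusters lay wholly below, and the differences were -0.86 and -0.72 (SE 0.35 each), with an adjusted p of 0.447 in both. Gnai2, an inhibitory subunit, differed by -0.77 and -0.81 (SE 0.53 each), and Gnaz, the substrate of Rgs17, by -0.29 in both (SE 0.22 each). Gnas, the stimulatory subunit on which most RGS proteins do not act, differed by -0.02 and 0.06 (SE 0.16 each), and a second, dimmer cluster of it by 0.14 and 0.26.

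Of the β and γ subunits 12 of 16 were measured, 6 tested and 0 passed, and 10 and 9 of the 12 had means below mCherry with wt-SetB and myr-SetB, also after quantile normalization. Gng3, a neuronal γ subunit, differed by -0.54 and -0.56 (SE 0.31 each). Among the effectors, 16 of 17 were measured, 11 tested and 0 passed, with 11 and 10 below mCherry, and 9 and 9 after quantile normalization. Both lists are to be read against 65.5% and 63.9% of all tested clusters as deposited, and 53.5% and 53% after quantile normalization. Over all clusters, tested or not, 57% and 54% were below as deposited. Plcb1, the phospholipase C driven by Gq, differed by -0.38 with wt-SetB and -0.64 with myr-SetB (SE 0.27 each). Its myr-SetB arrays of 6.43, 6.97 and 7.21 lay just below the lowest mCherry array at 7.23. In that comparison 6.85% of all tested clusters lay wholly below, and Plcb1 was above the background mark on 3 of 9 arrays. Plcb4 differed by -0.43 and -0.63 (SE 0.43 each). Adcy1, a calcium-stimulated adenylyl cyclase, differed by -0.17 and -0.15 (SE 0.20 each) and turned to 0.05 and 0.03 after quantile normalization, and Kcnj3, a channel opened by βγ, differed by -0.08 and 0.02 (SE 0.16 each), and by 0.00 and 0.09 after quantile normalization.

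The receptors that RGS proteins restrain lay about 0 on the deposited scale. Their medians were above those of the tested clusters by 0.17 with wt-SetB and 0.18 with myr-SetB. Over all 36685 clusters, tested or not, the medians were -0.06 and -0.03, nearer to those of the receptors. Of 35 listed, 31 were measured, 14 tested and 0 passed, with 16 and 14 of the 31 below mCherry and medians of -0.01 and 0.02. After quantile normalization 13 and 12 of 31 were below, with medians of 0.03 and 0.05 where those of all tested clusters were -0.03. Gabbr1 and Gabbr2, the 2 subunits of the GABA-B receptor, differed by -0.47 and -0.64 (SE 0.30 each) and by -0.30 and -0.37 (SE 0.25 each). After quantile normalization Gabbr1 was at -0.12 and -0.36 and Gabbr2 at 0.04 and -0.09, so Gabbr2 with wt-SetB changed sign. Adora1, the adenosine A1 receptor, was above background on all arrays and differed by -0.05 and -0.02 (SE 0.14 each). After quantile normalization Adora1 changed sign, to 0.29 in both. Of the 21 other regulators of the pathway, such as receptor kinases and arrestins, 17 were tested and 0 passed, with 19 and 17 below mCherry and 16 and 16 after quantile or loess normalization, where 65.5% and 63.9% of all clusters were below as deposited and 53.5% and 53.0% after quantile. Ric8a, the chaperone and exchange factor of α subunits, differed by -0.40 and -0.43 (SE 0.21 each) with no overlap in either, as for 26.4% and 6.85% of all clusters, and an adjusted p of 0.447 in both. After quantile normalization the Ric8a differences were -0.12 and -0.19.

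**Figure D5:**
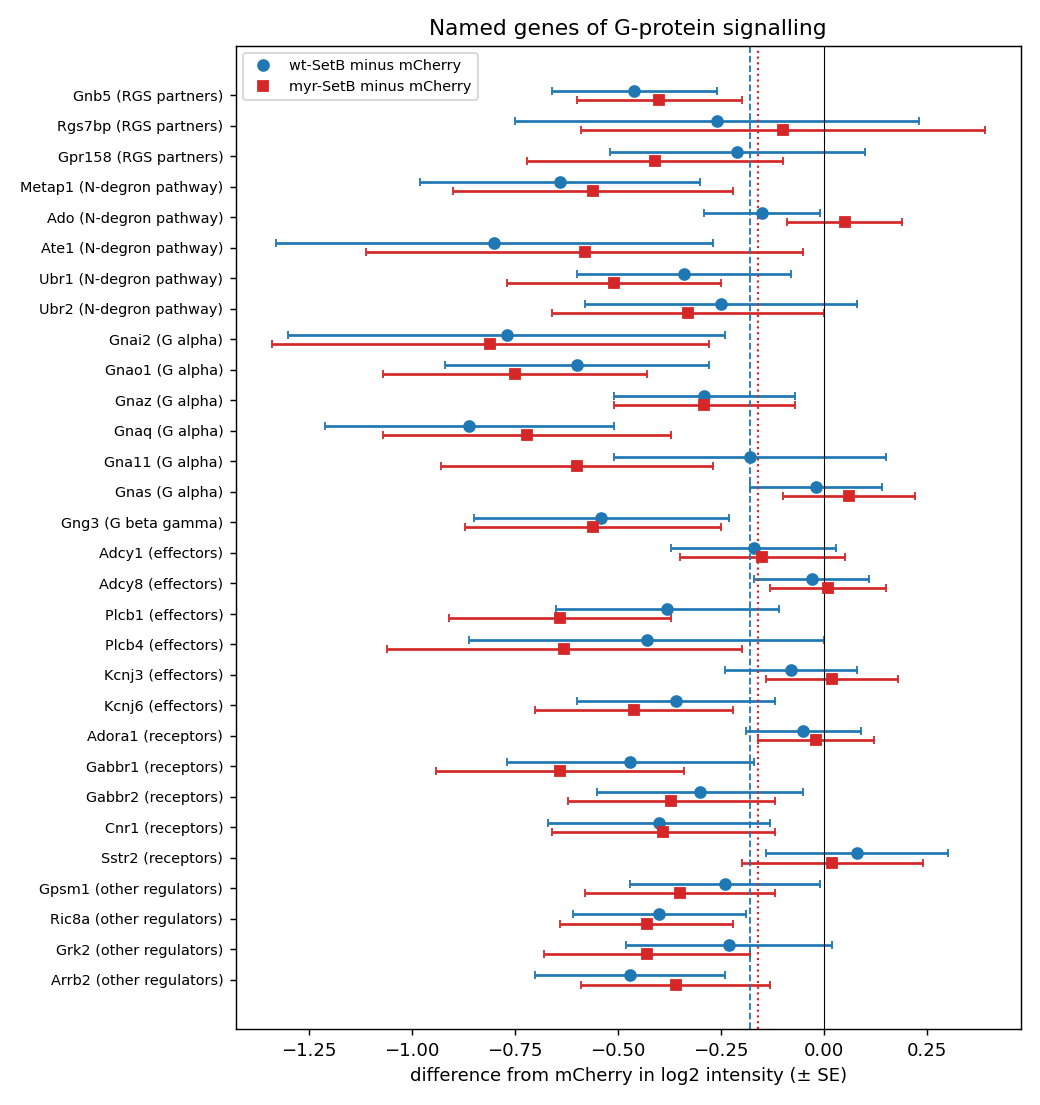
Difference in mean log2 intensity from mCherry for wt-SetB and myr-SetB in the named genes of G-protein signalling, grouped by role, with bars of 1 SE from the fit over 3 arrays per group and vertical broken lines at the medians of all tested clusters. Gnaq, Ate1 and Gnai2 have the lowest wt-SetB values (-0.86, -0.80 and -0.77), and Gnas, Adora1 and Kcnj3 lie within 0.08 of 0 on this scale, though Adora1 is at 0.29 for both after quantile normalization.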

How the data were processed

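Total RNA from sorted cells was amplified (Ovation Pico WTA) and hybridised to Affymetrix Rat Gene 2.0 ST arrays, 9 in all. Per the labels' design text, the authors computed RMA expression values with Affymetrix Expression Console and normalized them to each array's median. The deposited intensity values are on a linear scale with the same median on every array. No version or annotation build is stated in the sources used here. Values were taken as log2 without a pseudocount.

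Of 36685 clusters, 18511 had 1 gene symbol, 575 several and 17599 none, from GEO's platform annotation. Of the single-symbol clusters 18394 matched GRCr8 for current names. The fit by limma 3.58.1 (R 4.3.3) used group means over all 9 arrays on the 18343 clusters with a mean log2 of at least 6.65, the median, and 10714 of these had 1 symbol. Tests were two-sided with Benjamini-Hochberg adjustment at 0.05, and the script was tested on simulated data. The number of arrays limits precision. Where a gene had several clusters, the one with the highest mean stood for it.

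The members and gene lists were chosen with earlier results of these data known. Named genes were all members, the listed pathway genes known for acting with RGS proteins, and the 5 genes most correlated with Rgs4. Rgs11, Rgs9 and Rgs5 were named after their values were seen. Alternatives were quantile and cyclic loess normalization, an added 16, no filter or a filter at the 75th percentile, single-symbol clusters, only the groups compared, a replicate block, array weights and each array left out.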

Additional observations from a re-analysis of the deposited data

How the results depend on the processing

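No cluster passed an adjusted p of 0.05 in any of the 3 comparisons under any of the 19 alternatives. Rgs4 stayed below 0 in all 19 in each comparison. With quantile and cyclic loess normalization the Rgs4 difference was -0.14 and -0.13 in wt-SetB against mCherry and -0.70 and -0.59 in myr-SetB against mCherry, and the members' median in myr-SetB against mCherry was -0.15 and -0.13. Without the 3 arrays numbered 1, which was added after seeing the data, Rgs4 was -0.43, -0.83 and -0.40 in wt-SetB against mCherry, myr-SetB against mCherry and myr-SetB against wt-SetB, and the members' median was -0.05 in myr-SetB against mCherry and 0.00 in myr-SetB against wt-SetB. The cause was not tested. Leaving out single arrays, Rgs4 ran from -0.66 to -0.39, from -1.19 to -0.92 and from -0.59 to -0.44 in the same order, and the members' median from -0.36 to -0.11, from -0.55 (without mCherry replicate 2) to -0.19 and from -0.10 to -0.02. Rgs8 was below the level filter and had no value with array weights, so no median was taken there.

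Same-numbered arrays of different groups correlated between -0.069 and 0.383 in their deviations from the group means, with 5 of 9 pairs over 0.1, and 5 of 9 arrays correlated best with one of their own number. Not every pair was over 0.1, so the numbers were not taken to pair the samples, although the arrays numbered 1 share low levels of Vim, Pdgfrb and Col3a1. With the number as a replicate block 0 clusters passed the adjusted p in each comparison, 1937, 1754 and 251 had an unadjusted p under 0.05, and Rgs4 was -0.49, -1.02 and -0.53 (SE 0.21 each). Every alternative with arrays left out has fewer degrees of freedom, and Rgs2, Rgs8, Rgs16 and Rgs17 were above background on under 6 arrays, which limits what their differences can show.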
